A study of Homo sapiens with 24 samples.

Results

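The cell cycle and DNA replication genes are a set of 51 genes, fixed by their Ensembl identifiers, that drive and mark the passage of a cell from G1 through S phase and mitosis. They were 51 of the 20426 genes listed in every library, and all 51 passed the filter on low counts, as did 11938 genes in all. The set was read in ribosome profiling data, in which fragments of mRNA protected by ribosomes (RPF, called footprints here) are sequenced beside RNA of the same cells (INPUT, called mRNA here). Footprints relative to mRNA give the translation efficiency (TE) of a gene.

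The series holds 24 libraries from 6 cultured human cell populations, with 2 INPUT and 2 RPF libraries of each. 841CON is labelled as normal colon epithelium. HCT116, HCT15 and SW620 are established colon cancer lines, labelled wild type. HCT15 was also used with the vector PLVX and as cells labelled with overexpression of COPS7B, a subunit of the COP9 signalosome. All cells were treated with cycloheximide at 100 µg/mL for 10 min, which holds ribosomes on the mRNA. The culture media differed: 841CON grew in EMEM, HCT116 in RPMI-1640, HCT15 in DMEM and SW620 in L15 without added CO2, so medium and line cannot be told apart. The design text asks how TE in each cancer line differs from 841CON. The labels do not say that the 2 libraries of a group came from separate cultures, and p-values then reflect only how far these libraries vary, possibly for technical reasons. The markers that would define 841CON as epithelium were not analysed here.

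In the cell cycle, D-type cyclins with CDK4 or CDK6 phosphorylate RB1 in G1, which frees E2F factors to transcribe genes of replication. CDC6 and CDT1 load the MCM helicase onto origins, and PCNA then holds the polymerases on DNA. Cyclin B with CDK1 drives mitosis, held back by WEE1 and released by CDC25 phosphatases, and the spindle checkpoint restrains the anaphase-promoting complex (APC/C) until chromosomes are attached. Many of these genes are transcribed in a wave once per cycle, and they are used as measures of proliferation in tumours of the colon and elsewhere.

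INPUT libraries held 1237231 to 9105954 counts and RPF libraries 84262 to 4679279. The shallowest were the SW620 RPF libraries, with 707 and 464 counts in the 51 genes together, so that their median gene rested on 11 and 8 counts. The 841CON INPUT libraries differed most from each other: 25 of the 51 genes lay over 2-fold apart, such as MCM6 at 50.0 and 1.05 CPM and AURKA at 2.83 and 55.9 CPM. CPM here are counts over the total of the shared genes, as the usual CPM unit, scaled between the libraries of an assay. At the other end, 4 replicate pairs were close (RPF of 841CON and COPS7B, both assays of HCT116), with a chi-square of 1.39 to 1.70 per gene against 4.12 to 63.9 in the other 8 pairs. They differed by more than counting error (a value of 1) and were kept as 2 libraries each. The libraries labelled COPS7B stood apart from other HCT15 libraries. Over the 11938 genes, their mean log CPM correlated with that of the vector line at r = 0.61 in INPUT and 0.70 in RPF, while vector and parental HCT15 gave 0.93 and 0.87. With HCT116 they correlated at 0.68 in INPUT and 0.60 in RPF, where the vector line gave 0.75 and 0.62. COPS7B itself was not analysed here, so the label was not checked on the gene.

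The 51 genes took a larger share of the counts in the cancer lines than in 841CON in most libraries. The share was 0.476% and 0.677% in 841CON INPUT and 0.462% in each 841CON RPF library, against 0.921 to 0.987% in INPUT and 0.933 to 1.39% in RPF of HCT116 and HCT15. In SW620 it was 0.597% and 0.879% in INPUT and 0.721% and 0.551% in RPF. This unscaled share overlaps 841CON in INPUT and not in RPF. As summed scaled CPM, SW620 RPF stood at 6087 and 4899 and 841CON RPF at 6154 and 5640, which overlap. CCND1 alone had a mean of 2334 CPM of footprints in 841CON and 55.15 in SW620. In such bulk samples a smaller fraction of cycling cells and less RNA per cell cannot be told apart.

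mRNA of most of the genes rose in each cancer line. In HCT116 against 841CON, 28 of 51 rose and 5 fell (edgeR quasi-likelihood test, Benjamini-Hochberg adjusted p under 0.05), beside 19% and 21% of all genes tested. HCT15 had 35 that rose and 5 that fell, beside 16.7% and 18.7% of all genes. In SW620, 27 rose and 4 fell, beside 21.9% and 22.5%. The median log2 change of the 51 was 1.99 in HCT116, 1.75 in HCT15 and 1.48 in SW620, where all genes had medians of -0.04, -0.02 and 0.03. These comparisons share the 841CON libraries, so a deviation in those libraries enters all of them. HCT15 fell to 24 called genes when only its own and the 841CON libraries were fitted. All genes called for HCT15 fell as well, from 4226 of 11938 to 1760 of 9987. SW620 had fewer called genes without SW620 INPUT replicate 2.

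**Figure D1:**
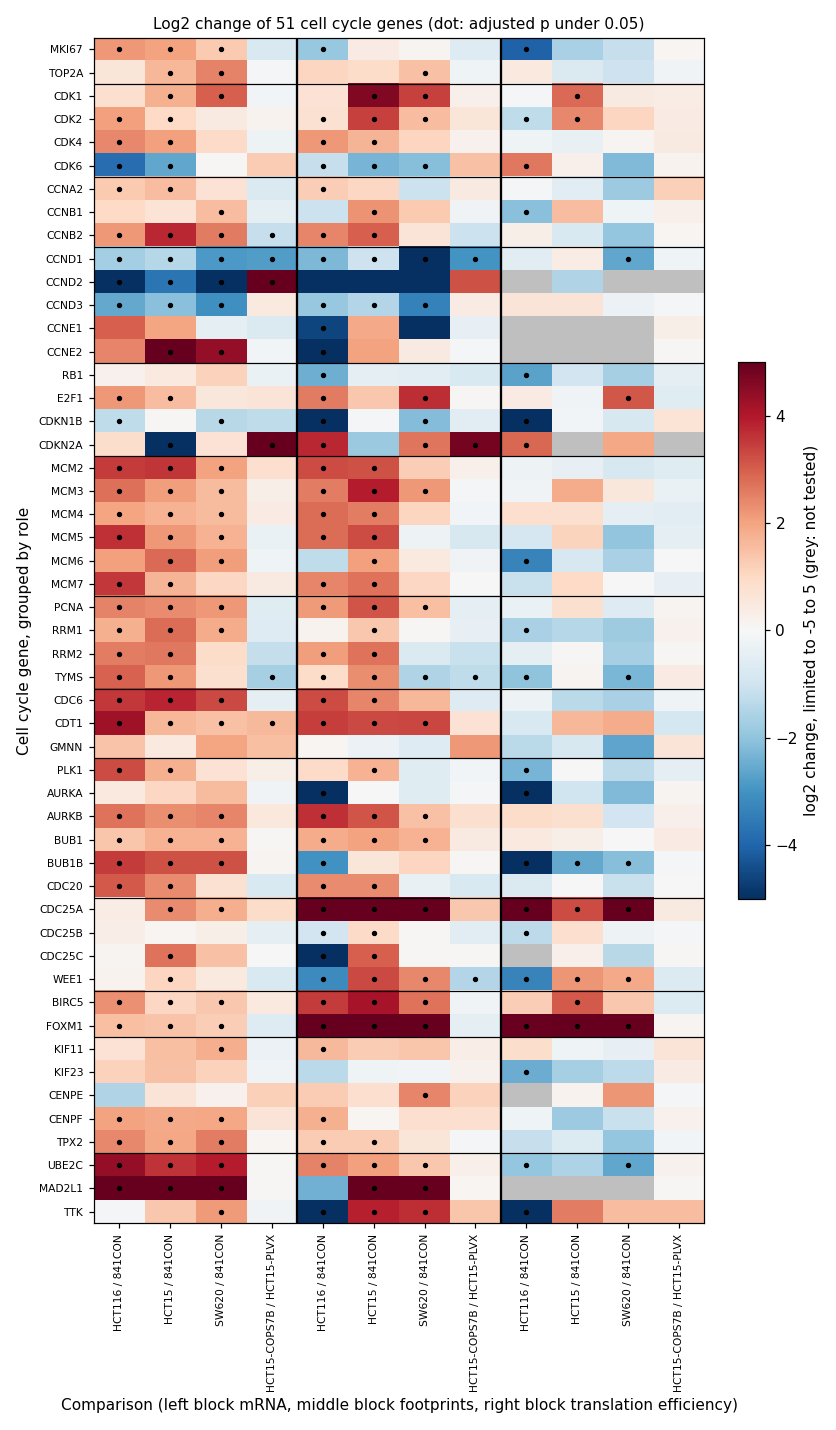
Fitted log2 changes of the 51 genes (rows, grouped by role) in 4 comparisons for mRNA, footprints and TE (columns), limited to -5 to 5, with a dot where the adjusted p was under 0.05 and grey where TE was not tested. The mRNA block is mostly red in the 3 cancer lines, with D-type cyclins and CDK6 among the blue cells. HCT116 has the most genes called lower in footprints (14) and in TE (16), beside 36.7% and 30.6% of all genes tested. Values at a limit may rest on a group with no counts.

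Promoters were looked at for the letters of 3 motifs of cell cycle genes, over all members found and whatever the direction of their change. A link between motifs and changes was not tested. The windows were the 250 bases before each annotated start in RefSeq (GRCh38.p14), with 55 starts of 38 members found by symbol among 35116 starts of 27305 genes. CCAAT, on either strand, was in 67.3% of the members' windows and 32% of all. TTTGAA, the core of the cell cycle homology region (CHR), was in 21.8% and 13.3%. An E2F-type site (TTTCCCGC, TTTCGCGC, TTTGCCGC or TTTGGCGC) was in 18.2% and 2.79%. A match is a description of letters and not a bound site. Roles and motifs matched only in part. Of replication genes, MCM3, MCM6, MCM7, PCNA, GMNN, CDT1 and TYMS had an E2F-type site. MCM2, CDC6, RRM1 and RRM2 lacked it. Of mitotic genes, CCNB2, MKI67, TOP2A, CDK1, CDC20, CDC25C, PLK1, BUB1B, KIF11 and KIF23 had a CHR. CCNB1, AURKB, BUB1, CENPE, CENPF and MAD2L1 lacked it. RRM1 also had a CHR, and CDC25A and CDK1 an E2F-type site. The windows shown were picked as examples. Those of MCM3 (chr6:52284743-52284992, minus strand) and PCNA (chr20:5126623-5126872, minus strand) hold an E2F-type site. Those of CCNB2 (chr15:59104896-59105145, plus strand) and MKI67 (chr10:128126424-128126673, minus strand) hold a CHR. Each lies upstream of the first exon, and capitals mark any of the 3 motifs; in MKI67 a CHR and a CCAAT overlap.
MCM3: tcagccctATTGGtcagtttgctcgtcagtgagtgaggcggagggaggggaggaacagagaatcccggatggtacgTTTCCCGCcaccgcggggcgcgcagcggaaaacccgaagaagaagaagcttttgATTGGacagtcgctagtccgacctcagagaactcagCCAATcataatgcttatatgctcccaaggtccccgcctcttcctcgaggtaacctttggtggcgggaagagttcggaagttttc
PCNA: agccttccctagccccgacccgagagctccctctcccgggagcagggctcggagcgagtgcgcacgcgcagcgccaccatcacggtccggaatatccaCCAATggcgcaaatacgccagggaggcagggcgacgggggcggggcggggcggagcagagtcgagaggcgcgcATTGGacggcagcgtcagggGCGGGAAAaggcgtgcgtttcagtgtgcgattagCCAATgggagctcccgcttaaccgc
CCNB2: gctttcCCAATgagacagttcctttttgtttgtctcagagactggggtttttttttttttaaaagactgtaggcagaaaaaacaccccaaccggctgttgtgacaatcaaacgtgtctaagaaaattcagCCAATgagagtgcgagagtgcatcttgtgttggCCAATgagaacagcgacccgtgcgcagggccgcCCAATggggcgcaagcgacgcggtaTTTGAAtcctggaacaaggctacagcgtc
MKI67: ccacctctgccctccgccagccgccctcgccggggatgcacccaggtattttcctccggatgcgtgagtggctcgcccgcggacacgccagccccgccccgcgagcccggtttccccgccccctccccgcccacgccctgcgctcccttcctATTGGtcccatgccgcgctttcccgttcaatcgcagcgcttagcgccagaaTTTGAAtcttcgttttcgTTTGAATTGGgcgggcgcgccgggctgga

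MKI67 (ENSG00000148773), the Ki-67 antigen that coats mitotic chromosomes and is the standard stain for proliferating cells, had mRNA at 45.3 and 69.5 CPM in 841CON. It stood at 241 and 275 CPM in HCT116, 235 and 240 in HCT15 and 123 and 163 in SW620, so that no cancer library overlapped 841CON. The mRNA rose by 2.15 ± 0.41 (log2, SE) in HCT116 (adjusted p = 4.58e-04), 2.03 ± 0.41 in HCT15 (8.44e-04) and 1.30 ± 0.41 in SW620 (0.0144). The SW620 call was lost without 841CON INPUT replicate 1 (adjusted p = 0.0976) or SW620 INPUT replicate 2 (0.105). Footprints of MKI67 took another course. They were 104 and 91.1 CPM in 841CON and only 21.8 and 31.1 in HCT116, a log2 change of -1.88 ± 0.44 (adjusted p = 0.00109, and 0.06 with close replicate pairs summed to 1 sample each). HCT15 at 88.8 and 167 and SW620 at 129 and 84.5 overlapped 841CON and passed no test. TOP2A, the topoisomerase that untangles replicated DNA, rose in mRNA in HCT15 and SW620 and had a log2 change of 0.61 ± 0.50 in HCT116.

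PCNA (ENSG00000132646), the sliding clamp of DNA polymerases, stood at 43.4 and 109 CPM of mRNA in 841CON and between 265 and 454 CPM in the 6 INPUT libraries of the cancer lines. Its mRNA rose by 2.47 ± 0.44 in HCT116, 2.36 ± 0.43 in HCT15 and 2.17 ± 0.43 in SW620 (adjusted p = 2.07e-04, 3.65e-04 and 5.31e-04). Footprints were 84.2 and 68.1 CPM in 841CON, 346 and 327 in HCT116, 470 and 895 in HCT15 and 284 and 148 in SW620, which do not overlap. They rose in all 3 comparisons (2.14 ± 0.44, 3.16 ± 0.45 and 1.51 ± 0.47), and the SW620 call, at adjusted p = 0.0165, was lost without SW620 RPF replicate 1 (0.297), 841CON RPF replicate 2 (0.0911) or 841CON RPF replicate 1 (0.0508). The enzymes of nucleotide supply, RRM1 and RRM2 of ribonucleotide reductase and TYMS (thymidylate synthase), rose in mRNA with PCNA in HCT116 and HCT15, 4 of 4 genes in each. In SW620 PCNA and RRM1 rose, and RRM2 (0.91 ± 0.43) and TYMS (0.80 ± 0.40) did not pass.

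TYMS footprints rose in some lines and fell in another. They stood at 196 and 206 CPM in 841CON, 1113 and 884 in HCT15, 351 and 412 in HCT116, and 68.9 and 73.9 in SW620. Its footprints rose in HCT15 (2.31 ± 0.40, adjusted p = 1.22e-04) and HCT116 (0.93 ± 0.39, 0.0464) and fell by 1.49 ± 0.50 on the log2 scale in SW620 (0.0234). The HCT116 and SW620 calls were each lost without any of the 4 libraries compared, with adjusted p up to 0.175 and 0.130.

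Of the 9 genes of origin licensing, mRNA of 7 rose in HCT116, 8 in HCT15 and 7 in SW620, where 19%, 16.7% and 21.9% of all genes rose. None of the 9 fell in these comparisons. The MCM genes encode the 6 subunits of the replicative helicase. MCM3, the example with its promoter above, had mRNA at 62.2 and 38.4 CPM in 841CON, 319 and 341 in HCT116, 224 and 197 in HCT15 and 77.8 and 217 in SW620, with no overlap. MCM7 rose by 3.55 ± 0.47 in HCT116 and 1.70 ± 0.44 in HCT15, and gave 1.04 ± 0.44 in SW620 (adjusted p = 0.0587). The loaders CDC6 and CDT1 rose in mRNA in all 3 comparisons, with CDT1 at 622 and 639 CPM in HCT116 against 56.6 and 15.1 in 841CON. Geminin (GMNN), which inhibits CDT1, passed in none. MCM6, with 50.0 and 1.05 CPM in the 841CON INPUT libraries, passed in HCT15 and SW620, and the SW620 call (adjusted p = 0.0492) was lost without 841CON INPUT replicate 2 or either SW620 INPUT library.

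Of the 9 mitotic kinases, checkpoint and APC/C genes, 7 rose in mRNA in HCT116, 7 in HCT15 and 6 in SW620, where 19%, 16.7% and 21.9% of all genes rose. AURKA passed in none, and TTK had a log2 change of -0.04 in HCT116. UBE2C (ENSG00000175063), the ubiquitin-conjugating enzyme of the APC/C, had 13.2 and 9.28 CPM in 841CON, 229 and 222 in HCT116, 158 and 106 in HCT15 and 169 and 163 in SW620. It rose by 4.39 ± 0.46, 3.61 ± 0.44 and 3.94 ± 0.45, with adjusted p of at most 1.05e-05. MAD2L1 (ENSG00000164109), the checkpoint protein that inhibits CDC20, was sparse in 841CON. It had 3.77 and 1.40 CPM there, from 4 and 8 counts, and 55.9 to 115 CPM in the 6 cancer INPUT libraries. Its mRNA rose by 5.74 ± 0.69 in HCT116, 5.47 ± 0.69 in HCT15 and 5.34 ± 0.69 in SW620 (adjusted p of at most 1.61e-05). Footprints of MAD2L1 were 1 count in the pooled 841CON libraries and 331 in HCT15, a ratio of 241 (95% counting interval 42.9 to 9540). In SW620 the footprint call of MAD2L1 (adjusted p = 0.0102) rested on 3 counts, all in RPF replicate 2, and was lost without that library (0.962). In HCT116 no footprint of MAD2L1 was counted in either library while the mRNA stood at 106 and 115 CPM. PLK1, AURKB, BUB1, BUB1B and CDC20 rose in HCT116 and HCT15. Among the spindle motors and kinetochore proteins, CENPF and TPX2 rose in mRNA in each comparison, KIF11 rose in SW620, and KIF23 and CENPE passed in none.

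**Figure D2:**
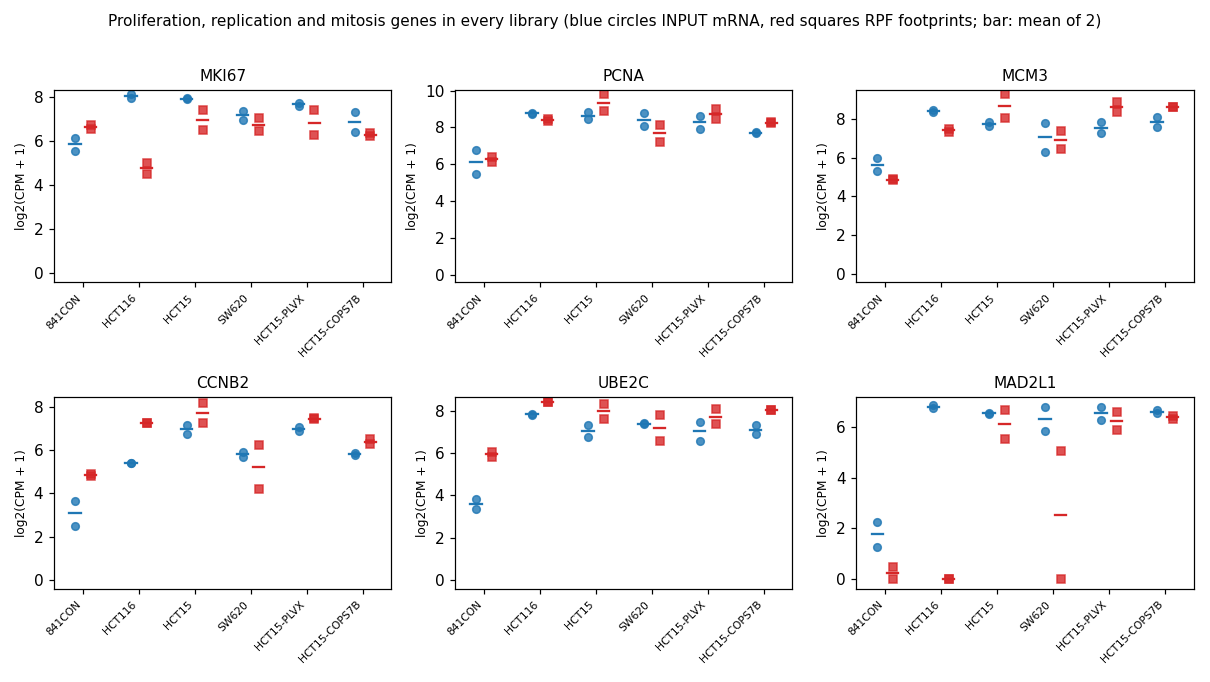
Levels of 6 genes in every library, as log2(CPM + 1), for 6 cell populations; circles are INPUT and squares RPF, and bars are means of 2 libraries. INPUT of the 3 cancer lines lies above 841CON in all 6 panels, whereas HCT116 RPF of MKI67 lies below 841CON and that of MAD2L1 is at 0.

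Among the cyclin-dependent kinases, CDK4 (ENSG00000135446) and CDK6 (ENSG00000105810), which share the D-type cyclins as partners, moved apart. CDK4 had 66.0 and 89.0 CPM of mRNA in 841CON, 429 and 398 in HCT116, 419 and 223 in HCT15 and 141 and 158 in SW620. It rose in HCT116 (2.40 ± 0.41, adjusted p = 1.48e-04) and HCT15 (2.04 ± 0.40, 6.89e-04), and SW620 gave 0.94 ± 0.40 (0.0617). CDK4 footprints rose with it in HCT116 (2.18 ± 0.41) and HCT15 (1.68 ± 0.40), the latter not with close pairs summed (adjusted p = 0.0724). CDK6 mRNA was 552 and 1195 CPM in 841CON, 69.3 and 56.4 in HCT116 and 130 and 158 in HCT15, log2 changes of -3.80 ± 0.54 and -2.60 ± 0.50 (adjusted p = 2.49e-05 and 5.69e-04). SW620 held 707 and 1131 CPM, within the range of 841CON. CDK6 footprints were 212 and 192 CPM in 841CON and below that in every cancer library, at 94.9 and 85.4 in HCT116, 15.4 and 61.9 in HCT15 and 77.5 and 10.6 in SW620. They passed in each comparison, but the HCT116 call (adjusted p = 0.0494) was lost without any of the 4 libraries compared (0.0975 to 0.193), and the SW620 call (0.0166) without SW620 RPF replicate 2 (0.172) or 841CON RPF replicate 1 (0.0508).

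CDK1 and CDK2, the kinases of mitosis and S phase, rose in mRNA in 2 comparisons each, CDK1 in HCT15 and SW620 and CDK2 in HCT116 and HCT15. The A- and B-type cyclins that bind them rose in places: CCNB2 in all 3 comparisons, CCNA2 in HCT116 and HCT15, and CCNB1 in SW620. CCNB2 had 4.71 and 11.7 CPM in 841CON and 40.7 to 144 CPM in the cancer lines.

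D-type cyclins went the other way. CCND1 (ENSG00000110092), cyclin D1, had 2984 and 3624 CPM of mRNA in 841CON. It stood at 996 and 1029 CPM in HCT116, at 1421 and 1027 in HCT15 and at 210 and 695 in SW620, all below 841CON. The log2 changes were -1.71 ± 0.43, -1.43 ± 0.43 and -2.86 ± 0.45 (adjusted p = 0.00383, 0.0131 and 6.23e-05). With close pairs summed the HCT116 and HCT15 calls were lost (0.118 and 0.087). The HCT15 call was also lost without HCT15 INPUT replicate 2 (0.0882) or replicate 1 (0.0508), and with only the compared libraries (0.0518). CCND1 footprints were 2392 and 2277 CPM in 841CON and 25.8 and 84.5 in SW620, a log2 change of -5.46 ± 0.58 (adjusted p = 1.37e-06). In HCT116 they were 477 and 496 CPM, a log2 change of -2.26 ± 0.44 (2.30e-04). HCT15 held 918 and 1337 CPM of CCND1 footprints, and its call (0.0462) was lost without any of the 4 libraries. CCND3 fell in mRNA and footprints in each comparison, from 476 and 489 CPM of mRNA in 841CON to 79.4 and 86.1 in HCT116, 100 and 124 in HCT15 and 43.8 and 69.4 in SW620. CCND2 (ENSG00000118971) had 177 and 14.9 CPM of mRNA in 841CON and no count in HCT116 or SW620. With the group set at 3 counts, this is at least 113-fold lower in HCT116 (adjusted p = 2.23e-04) and at least 78.6-fold lower in SW620 (3.23e-04). These bounds rest on 841CON INPUT replicate 1: without it they were 17.5-fold and 12.2-fold, and without replicate 2 they were 208-fold and 145-fold. In HCT15, at 6.74 and 8.38 CPM, the fall of CCND2 (adjusted p = 0.00667) was lost without 841CON INPUT replicate 1 (0.304) or HCT15 INPUT replicate 1 (0.062).

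The E-type cyclins, which activate CDK2 at the start of S phase, were sparse. CCNE2 (ENSG00000175305) had 3 counts of mRNA in 841CON, all in replicate 1, and 293 in HCT15, a ratio of 100 (95% counting interval 34 to 489). HCT15 replicates of CCNE2 stood apart at 59.1 and 13.96 CPM. The HCT15 call (adjusted p = 0.00772) was lost without 841CON INPUT replicate 2 (0.0631), and the SW620 call (0.0232), at 7.67 and 25.3 CPM, without 841CON INPUT replicate 2 (0.17) or SW620 INPUT replicate 2 (0.181). CCNE1 mRNA passed in none. Footprints of CCNE2 were 15.5 and 4.59 CPM in 841CON and were not counted in HCT116, at least 6.84-fold lower (adjusted p = 0.0146), or 3.13-fold without 841CON RPF replicate 1 and 10.5-fold without replicate 2. This call was lost without 841CON RPF replicate 1 (0.0872) or either HCT116 RPF library (0.0729 and 0.0741).

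CDKN2A (ENSG00000147889) encodes the CDK4 and CDK6 inhibitor p16 and, in another reading frame, ARF, which gene counts do not separate. Its mRNA was 137 and 9.81 CPM in 841CON, 131 and 126 in HCT116 and 110 and 117 in SW620. HCT15 had 1 count in its INPUT libraries together against 201 in 841CON, a fall (adjusted p = 1.13e-04) with a ratio of 196 (95% counting interval 34.7 to 7770). The vector line likewise had 1 count. CDKN2A footprints were 29.2 and 26.8 CPM in 841CON, 370 and 399 in HCT116 and 77.5 and 285 in SW620. They rose by 3.77 ± 0.83 in HCT116 (adjusted p = 6.84e-04) and 2.66 ± 0.89 in SW620 (0.025), the latter lost without SW620 RPF replicate 2 (0.434), 841CON RPF replicate 1 (0.0949) or replicate 2 (0.0946). In parental HCT15 51 footprint counts were found, at 1.40 and 11.98 CPM, beside 1 count of mRNA. CDKN1B (ENSG00000111276), the inhibitor p27, fell in mRNA in HCT116 (-1.28 ± 0.46) and SW620 (-1.38 ± 0.46). Both calls were lost without 841CON INPUT replicate 1 (adjusted p = 0.181 and 0.0992), the HCT116 call also without HCT116 INPUT replicate 1 (0.181) or replicate 2 (0.152), and the SW620 call without SW620 INPUT replicate 1 (0.138). RB1 mRNA passed in no comparison. E2F1 (ENSG00000101412) rose in HCT116 (2.17 ± 0.52) and HCT15 (1.54 ± 0.51), in HCT15 from replicates at 109 and 28.4 CPM. The HCT15 call was lost without HCT15 INPUT replicate 1 (0.574) or 841CON INPUT replicate 1 (0.0818).

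**Figure D3:**
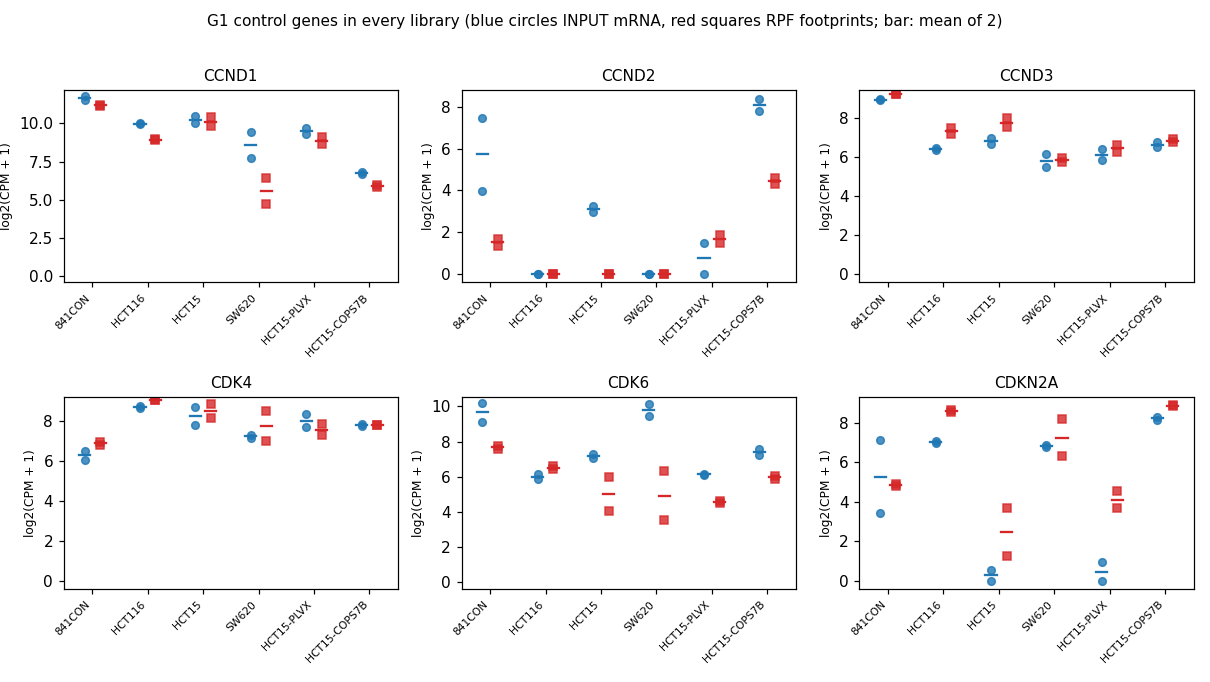
Levels of 6 genes of G1 control in every library, as log2(CPM + 1); circles are INPUT and squares RPF, and bars are means of 2 libraries. CCND1, CCND2 and CCND3 are highest in 841CON among the first 4 populations, CDK4 and CDK6 move in opposite directions in HCT116 and HCT15, and CDKN2A mRNA is at or near 0 in HCT15 and the vector line but not in the libraries labelled COPS7B.

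Footprints of many of the genes rose as well. In HCT116 26 of 51 rose and 14 fell, beside 22.6% and 36.7% of all genes. In HCT15 31 rose and 3 fell, beside 28.9% and 21.1%, and in SW620 18 rose and 5 fell, beside 18.9% and 18.9%, or 25 and 2 with library size alone. The median log2 change of the 51 was 1.08, 2.02 and 1.03, where all genes had -0.25, 0.27 and -0.09. The SW620 RPF libraries held 707 and 464 counts for the whole set. The SW620 count fell to 14 without 841CON RPF replicate 1 and to 14 without SW620 RPF replicate 1.

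TE was tested where mean INPUT counts reached 10 in each line, which left 45 of the 51 genes in HCT116 and 47 in each of HCT15 and SW620. In HCT116 TE rose for 4 and fell for 16, beside 15.1% and 30.6% of all genes tested, a share near the background in the lower direction. In HCT15 it rose for 6 and fell for 1, beside 11.6% and 5.08%. In SW620 it rose for 4 and fell for 4, beside 8.38% and 9.7%. The median log2 TE change of the set was -0.56 in HCT116 (all genes -0.59), 0.07 in HCT15 (0.30) and -0.96 in SW620 (-0.28). The split of calls moved with the scaling: with library size alone it was 5 rising and 11 falling in HCT116 and 6 and 3 in each of HCT15 and SW620. With DESeq2 it was 6 and 4 in HCT15 and 8 and 3 in SW620, and with trimmed means over all 24 libraries 6 and 3 in HCT15 and 3 and 5 in SW620. With the close replicate pairs summed to 1 sample each, 7 calls remained in HCT116 (MKI67, CDKN1B, AURKA, BUB1B, CDC25A, WEE1 and FOXM1), 1 in HCT15 (FOXM1) and 2 in SW620 (FOXM1 and CDC25A). With only the compared libraries fitted, 0 remained in HCT15 and 1 in SW620 (FOXM1). Over all genes, 0 of 8517 passed in HCT15 and 288 of 7284 in SW620 in these fits. Without 841CON RPF replicate 1 HCT116 had 12 calls, HCT15 had 4 and SW620 had 5. Without HCT116 RPF replicate 1 the calls in HCT116 were 13. HCT15 had 11 calls without 841CON INPUT replicate 1 and 4 without 841CON RPF replicate 2, and SW620 had 4 when SW620 INPUT replicate 2 was left out and 5 when SW620 RPF replicate 2 was.

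**Figure D4:**
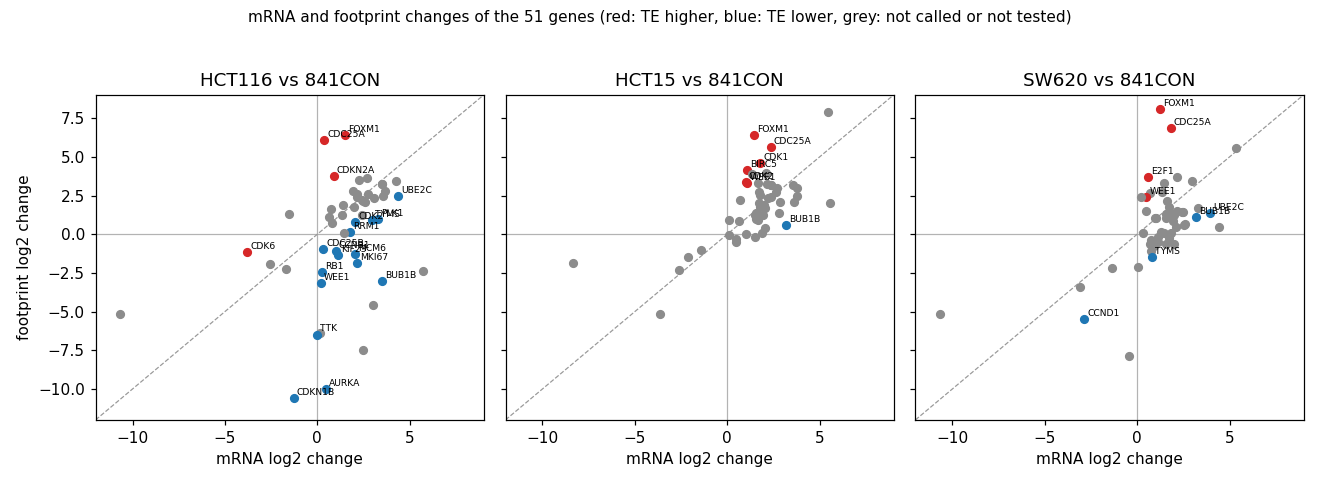
Log2 change of mRNA (x axis) against log2 change of footprints (y axis) for the 51 genes in the 3 cancer lines against 841CON; red and blue points passed the TE test upward and downward, and the dashed line marks equal changes. FOXM1 and CDC25A lie above the line in all 3 panels and BUB1B below it, while HCT116 holds 16 blue points; points with footprint changes near -10 have no HCT116 footprint count.

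FOXM1 (ENSG00000111206), the forkhead factor that activates genes of mitosis, had the largest TE rise in SW620 and HCT15 by fitted change. Its mRNA was 68.8 and 158 CPM in 841CON, 313 and 340 in HCT116, 295 and 323 in HCT15 and 338 and 202 in SW620, and rose by 1.23 to 1.51 on the log2 scale. The SW620 mRNA call (adjusted p = 0.0152) was lost without SW620 INPUT replicate 1 (0.211) or 841CON INPUT replicate 1 (0.154). FOXM1 footprints were 2.58 and 0.77 CPM in 841CON, from 7 and 1 counts, and 160 and 182 in HCT116, 162 and 180 in HCT15 and 620 and 454 in SW620. Mean footprint CPM over mean mRNA CPM was 0.0148 in 841CON and 0.525, 0.553 and 1.99 in HCT116, HCT15 and SW620. The vector line gave 0.451 and the libraries labelled COPS7B 0.496. TE rose by 4.93 ± 0.67 in HCT116 (adjusted p = 1.87e-05), 5.01 ± 0.67 in HCT15 (1.55e-04) and 6.86 ± 0.69 in SW620 (4.69e-06). These calls held without each library in turn. In HCT15 the call was lost with only its own and the 841CON libraries fitted (0.097).

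CDC25A (ENSG00000164045), the phosphatase that activates CDK2 at the entry to S phase, also had few footprints in 841CON: 3 and 1 counts, or 1.11 and 0.77 CPM. The cancer lines had 67.2 and 74.8 CPM (HCT116), 37.8 and 62.8 (HCT15) and 94.7 and 148 (SW620). Its mRNA was 5.66 and 34.0 CPM in 841CON and 28.0 and 28.7 in HCT116, within that range, against 144 and 76.3 in HCT15 and 49.3 and 103 in SW620. TE rose by 5.71 ± 1.03 in HCT116 (adjusted p = 2.48e-04), 3.26 ± 1.03 in HCT15 (0.0361) and 5.03 ± 1.08 in SW620 (0.00421). The HCT15 call was lost without 841CON RPF replicate 1, 841CON RPF replicate 2, HCT15 RPF replicate 2 or HCT15 INPUT replicate 2. It was also lost under 5 of 10 alternatives, among them only the compared libraries (0.301). The SW620 call was lost with only the compared libraries (0.0509).

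BUB1B (ENSG00000156970), the checkpoint kinase-like protein BubR1, moved in the opposite sense. Its mRNA was 3.77 and 6.65 CPM in 841CON and 44.9 to 65.4 CPM in the cancer lines, and rose in each (3.51 ± 0.48, 3.18 ± 0.48 and 3.20 ± 0.48). Footprints stood at 47.6 and 32.1 CPM in 841CON, 3.96 and 5.83 in HCT116, 61.5 and 61.4 in HCT15 and 86.1 and 84.5 in SW620. TE fell by 6.53 ± 0.71 in HCT116 (adjusted p = 2.58e-06), by 2.57 ± 0.62 in HCT15 (0.0088) and by 2.11 ± 0.67 in SW620 (0.0333). The HCT15 call was lost without 841CON RPF replicate 1, with only the compared libraries (0.161) and with close pairs summed. That in SW620 was lost in 5 of 7 fits without 1 library (0.0572 to 0.126: 841CON INPUT 1, 841CON RPF 1, SW620 INPUT 2, SW620 RPF 1 and SW620 RPF 2) and in 8 of 10 alternatives. The ratio of footprints to mRNA, 7.65 in 841CON, was the highest here. HCT116 gave 0.0757 and the other 4 populations 1.11 to 1.64. FOXM1, CDC25A and BUB1B are the members whose TE passed in 1 direction in all 3 comparisons, which share the 841CON libraries. The share of all genes with such calls was not counted.

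HCT116 had the most members without any footprint, but missing footprints were not particular to the set. Counts in every RPF library of HCT116 and 841CON were found for 43 of the 51 members. Over all genes they were found for 6681 of 11938, a smaller share. In the 2 HCT116 RPF libraries, with 997844 and 1012751 counts, 7 members had no footprint. These were CCND2, CCNE2, CDKN1B, AURKA, CDC25C, MAD2L1 and TTK, of which all but CCND2 had mRNA counts. CDKN1B had footprints of 94.1 and 81.9 CPM in 841CON and mRNA of 45.4 and 49.0 CPM in HCT116. Against a floor of 3 counts its footprints were at least 59.9-fold lower (adjusted p = 5.54e-07) and its TE at least 24.4-fold lower (6.19e-05). AURKA (ENSG00000087586), the spindle pole kinase Aurora A, had footprints of 66.1 and 49.8 CPM in 841CON and mRNA of 42.0 and 46.5 CPM in HCT116. Its footprints were at least 39.4-fold lower (adjusted p = 4.16e-05). The TE of AURKA was at least 59.4-fold lower (2.43e-04), or 31.2-fold without 841CON INPUT replicate 1 and 617-fold without replicate 2, beside 841CON mRNA of 2.83 and 55.9 CPM in these. The HCT116 RPF libraries detected 8350 and 8448 genes, fewer than the 9074 to 14518 in the other RPF libraries, although the SW620 libraries held only 98043 and 84262 counts. The part of that in these zeros was not tested.

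WEE1 (ENSG00000166483), the kinase that inhibits CDK1, and CDK2 differed in direction between lines. WEE1 mRNA stood at 68.8 and 69.7 CPM in 841CON, 86.7 and 71.7 in HCT116, 136 and 155 in HCT15 and 70.1 and 125 in SW620. The mRNA rose in HCT15 (1.07 ± 0.38, adjusted p = 0.0336), a call lost without 841CON INPUT replicate 2 (0.0792) or HCT15 INPUT replicate 2 (0.0997) and under 4 alternatives (0.0598 to 0.265). WEE1 footprints were 14.8 and 12.3 CPM in 841CON, 1.98 and 0.97 in HCT116, from 2 and 1 counts, 80.4 and 184 in HCT15 and 51.7 and 95.03 in SW620. TE of WEE1 fell by 3.36 ± 0.78 in HCT116 (adjusted p = 0.0018) and rose by 2.21 ± 0.55 in HCT15 (0.0104) and 1.90 ± 0.64 in SW620 (0.0453). The HCT15 call was lost without HCT15 RPF replicate 2 (0.0587) or 841CON RPF replicate 2 (0.0542). That in SW620 was lost in 5 of 8 fits without 1 library (0.0565 to 0.251: SW620 RPF 2, SW620 INPUT 1, both 841CON RPF libraries and 841CON INPUT 2). CDK2 footprints were 24 and 21.4 CPM in 841CON, 37.6 and 39.8 in HCT116, 241 and 243 in HCT15 and 77.5 and 52.8 in SW620. TE of CDK2 fell by 1.28 ± 0.42 in HCT116 (0.0185) and rose by 2.40 ± 0.41 in HCT15 (9.92e-04). The HCT116 call was lost without 841CON RPF replicate 1 and with close pairs summed. It was also lost with library size only (0.0551) and with no filter on low counts (0.0632). The CDK2 call in HCT15 was lost with only the compared libraries (0.132) and with close pairs summed.

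Further TE changes of named genes were in 1 or 2 of the lines. MKI67 fell by 4.03 ± 0.60 in HCT116 (adjusted p = 4.25e-05), from 1.70 footprint CPM per mRNA CPM in 841CON to 0.102. CDK6 rose by 2.63 ± 0.70 in HCT116 (0.00496), where mRNA fell further than footprints. BIRC5 (ENSG00000089685), the passenger protein survivin, rose by 3.08 ± 0.54 in HCT15 (0.00119), with footprints of 32.1 and 29.9 CPM in 841CON and 521 and 567 in HCT15. UBE2C fell by 1.92 ± 0.57 in HCT116 (0.0102, and 0.0536 without 841CON INPUT replicate 2) and by 2.60 ± 0.61 in SW620 (0.00724). E2F1 rose by 3.12 ± 0.82 in SW620 (0.0136), with footprints of 112 and 137 CPM against 8.12 and 11.5 in 841CON. That E2F1 call was lost in 4 of 8 fits without 1 library (0.0511 to 0.0666: 841CON INPUT 2, 841CON RPF 1, SW620 INPUT 2 and SW620 RPF 2). CCND1 fell by 2.59 ± 0.71 in SW620 (0.0175), a call lost without SW620 INPUT replicate 2 (0.116) or SW620 RPF replicate 1 (0.105). The TE rise of CDKN2A in HCT116 (2.89 ± 1.09, 0.0363) was lost without 7 of the 8 libraries compared, and without 841CON INPUT replicate 1 the adjusted p was 0.997. The remaining falls in HCT116 were CCNB1, RB1, MCM6, RRM1, TYMS, PLK1, CDC25B, KIF23 and TTK, and CDK1 rose in HCT15. TYMS fell also in SW620 (0.0185), a call lost without SW620 INPUT replicate 2 (0.079), SW620 RPF replicate 1 (0.0644) or SW620 RPF replicate 2 (0.0599).

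**Figure D5:**
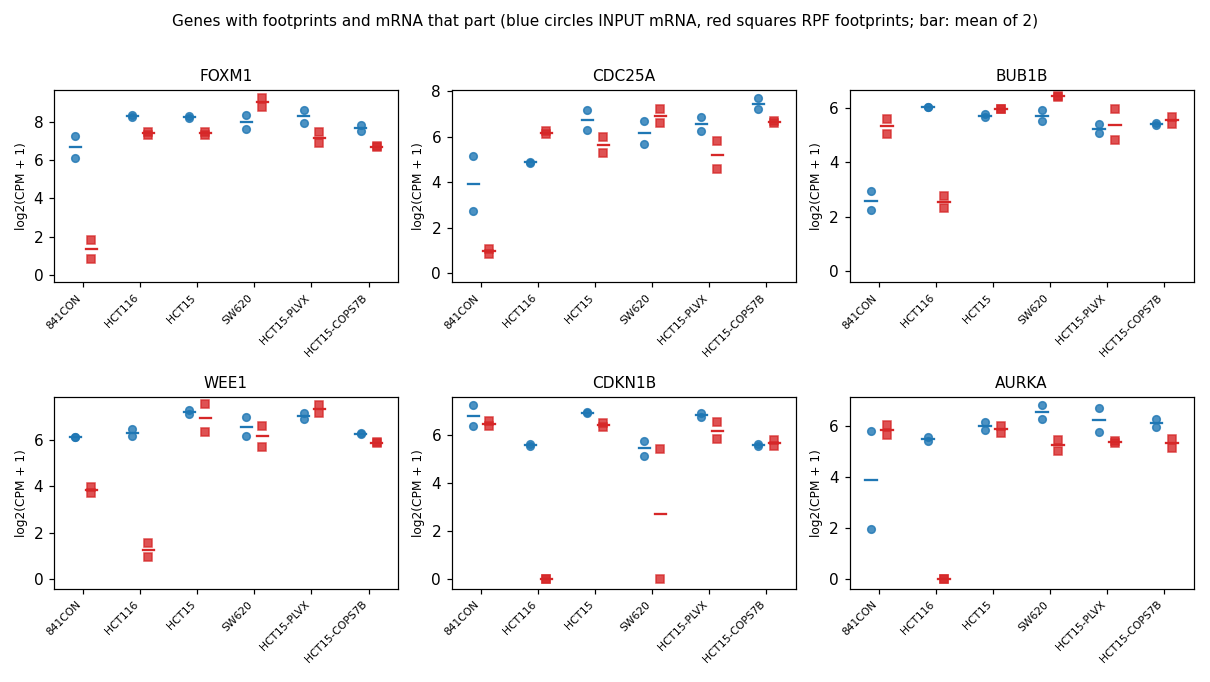
Levels of 6 genes whose footprints and mRNA part, in every library, as log2(CPM + 1); circles are INPUT and squares RPF, and bars are means of 2 libraries. RPF of FOXM1 and CDC25A is near the bottom in 841CON only, mean RPF of BUB1B, WEE1, CDKN1B and AURKA is lowest in HCT116, and 1 SW620 RPF library has no CDKN1B count.

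The cancer lines were also compared with each other, by an F test that does not use 841CON. mRNA differed among HCT116, HCT15 and SW620 for 23 of 51 genes, beside 46% of all genes tested, footprints for 37, beside 66.1%, and TE for 25 of 45, beside 52.7%. These shares lie near those of all genes. For mRNA CDK6 (adjusted p = 2.48e-05), CDKN2A (9.71e-05), CDT1 (1.29e-04) and CDC20 (2.23e-04) had the smallest adjusted p. For footprints they were WEE1 (5.29e-07), CDKN1B (2.39e-06), CDK2 (2.67e-06) and MAD2L1 (9.93e-06), and for TE CDK2 (1.39e-05), WEE1 (3.26e-05), MAD2L1 (9.91e-05) and BUB1B (1.23e-04). These genes were picked by that order after the values were seen. BUB1 and PCNA mRNA did not pass (0.557 and 0.818), with PCNA spanning 265 to 454 CPM over the 3 lines.

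In HCT15, the libraries labelled COPS7B were compared with the vector line. mRNA of 3 genes rose and of 3 fell among the 51, beside 9.18% and 8.31% of all genes, and the split was 3 and 5 with trimmed means over all 24 libraries. Footprints of 1 rose and of 3 fell, beside 7.92% and 9.42%, with 5 rising and 2 falling under library size alone, 4 and 4 with DESeq2, and 10 called in all with only the compared libraries. Without HCT15-PLVX INPUT replicate 2 the mRNA calls were 3, and without HCT15-PLVX RPF replicate 2 or either HCT15-COPS7B RPF library the footprint calls were 2. TE changed for 0 of 49 genes by edgeR and 0 by DESeq2, and 0% of all genes passed the edgeR test in either direction. An unadjusted edgeR p under 0.05 was found for 0 of the 49 and for 132 of all 9542 genes tested. With so few over all genes, 0 of 49 is near that share and is no result about the set. The median change of the set was -0.12 in mRNA, -0.04 in footprints and 0.07 in TE (all genes 0.08, 0.05 and -0.03).

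CDKN2A had the largest fitted mRNA change of the 51 in this comparison. Its mRNA was 0 and 0.91 CPM in the vector line and 311 and 283 in the libraries labelled COPS7B, a ratio of 987 (95% counting interval 177 to 39000, adjusted p = 5.05e-05), and footprints went from 11.7 and 22.3 to 465 and 449 CPM (9.60e-04). Parental HCT15 lacked CDKN2A mRNA likewise, with 1 count. CCND2 mRNA was 0 and 1.82 CPM in the vector line, 6.74 and 8.38 in parental HCT15 and 219 and 332 in the libraries labelled COPS7B (2.94e-04). CCND1 mRNA was 631 and 829 CPM in the vector line and 103 and 110 in the libraries labelled COPS7B, a log2 change of -2.78 ± 0.45 (2.21e-04), with footprints at 539 and 398 against 57.0 and 61.4 CPM (1.43e-04). TYMS mRNA fell from 158 and 312 to 91.1 and 56.1 CPM (0.00553), a call lost without HCT15-PLVX INPUT replicate 2 (0.125) or HCT15-COPS7B INPUT replicate 2 (0.1), and its footprint call (0.0308) was lost without any of the 4 libraries (0.0545 to 0.241). WEE1 footprints fell from 141 and 181 to 58.5 and 58.1 CPM (0.0116), lost without HCT15-PLVX RPF replicate 2 (0.0737) or either HCT15-COPS7B RPF library (0.1). CDT1 rose (adjusted p = 0.0229) and CCNB2 fell (0.0474) in mRNA. CDT1 was lost without either vector INPUT library or HCT15-COPS7B INPUT replicate 1, and CCNB2 without any of the 4.

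The proliferation markers passed no test between these cells. MKI67 mRNA was 211 and 191 CPM in the vector line and 83.3 and 155 in the libraries labelled COPS7B (-0.75 ± 0.40, adjusted p = 0.245), with footprints at 75.2 and 167 against 79.2 and 74.3. PCNA mRNA was 241 and 396 against 203 and 213 CPM (-0.61 ± 0.41, 0.401) and footprints 352 and 501 against 296 and 313. CDK4 mRNA was 205 and 322 against 229 and 215 CPM (-0.24 ± 0.39, 0.79). CDK6 mRNA was 69.8 and 68.1 against 147 and 188 CPM, and its footprints 21.4 and 23.2 against 65.3 and 56.7, which do not overlap and did not pass (0.0857 and 0.064). FOXM1, CDC25A, BUB1B, UBE2C and MAD2L1 did not pass for mRNA or footprints. That the libraries labelled COPS7B stand apart from HCT15 over all genes is a measured fact beside each of these values, and its part in them was not tested.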

How the data were processed

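Raw read counts per Ensembl gene were deposited by the authors, 1 table per library, for 12 INPUT and 12 RPF libraries. Per the submitters' processing notes, cutadapt 3.5, STAR 2.7.9 and HTSeq 2.0.2 were used with GRCh38. For the annotation release, strand setting, counted feature and multiply mapped reads, the setting is not given in the sources used here. An INPUT library lists 60623 genes and an RPF library 20426, and the 20426 shared genes were used. The 5 summary lines in each of the 8 vector and COPS7B tables were left out.

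One edgeR 4.0.16 quasi-likelihood model (R 4.3.3, limma 3.58.1) held all 24 libraries with a mean per group and 12 residual degrees of freedom. Genes passed edgeR's filter (minimum count 10) in INPUT and in RPF, and libraries were scaled by trimmed means of M values within each assay. TE changes were the interaction of assay and line, tested where the mean INPUT count was at least 10 in both lines. Tests were two-sided with Benjamini-Hochberg adjustment over all genes tested, at 0.05. Levels are means or single values of scaled CPM, and SE is the fitted change divided by the square root of F. A group without counts was set at 3 counts over the group, and a group with 1 to 3 counts has an exact 95% interval. Both cover counting error only. The procedure was also run on simulated counts, with changes planted in HCT116 RPF only and replicates drawn independently. That run did not imitate the close replicate pairs and planted no change in SW620, and its outcome is not given here.

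The members and lists were chosen with earlier results of these data known. Values in every library were given for MKI67, PCNA, CCND1, CDKN2A, CDK4 and CDK6, for the 3 called members with the largest fitted change per comparison and readout (mean count of at least 10 in the higher group), and for members called for TE in 1 direction in all 3 cancer lines. MCM3, TYMS, WEE1, CDK2, CCND3 and others named with values were chosen after their values were seen. Alternatives were DESeq2 1.42.0, other scalings and filters, the compared libraries alone, replicate blocks, close pairs summed and leaving out each library.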

Additional observations from a re-analysis of the deposited data

Results flagged for a closer look

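The change from 841CON differed among HCT116, HCT15 and SW620, by the edgeR F test, for mRNA of 23 genes, footprints of 37 and TE of 25, beside 46%, 66.1% and 52.7% of all genes tested. Among these, footprints of 5 genes and TE of 2 passed the test against 841CON upward in at least 1 line and downward in another. The share of all genes with such opposed calls was not counted. Of all genes tested, 36.7% fell in HCT116 footprints and 28.9% rose in HCT15 footprints. For TE these shares were 30.6% and 11.6%. WEE1 footprints changed by -3.17 in HCT116, 3.28 in HCT15 and 2.40 in SW620 on the log2 scale (adjusted p = 5.29e-07), and WEE1 TE by -3.36, 2.21 and 1.90 (3.26e-05). CDK2 TE changed by -1.28, 2.40 and 1.07 (1.39e-05). TYMS footprints changed by 0.93, 2.31 and -1.49 (1.31e-05). CDC25B footprints, of another CDK-activating phosphatase, changed by -0.96, 0.94 and 0.06 (2.37e-04). CDC25C footprints rose by 2.98 in HCT15, were not counted in HCT116 (at least 3.05-fold lower than in 841CON, or 2.08-fold and 4.02-fold without 841CON RPF replicate 1 and replicate 2) and rested on 1 count in SW620 (3.91e-05). TTK footprints, of a checkpoint kinase, rose by 3.88 in HCT15 and 3.68 in SW620 and were not counted in HCT116 (at least 3.46-fold lower; 2.10e-04). Groups of 2 libraries allowed no test for outlying samples.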

How the results depend on the processing

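With close pairs summed, called genes fell from 20 to 7 for HCT116 TE, from 7 to 1 for HCT15 TE, from 23 to 10 for SW620 footprints, from 8 to 2 for SW620 TE, from 4 to 2 for COPS7B footprints, and among the 3 lines from 23 to 10 for mRNA and from 25 to 8 for TE. With only the compared libraries they were 24 for HCT15 mRNA (40 in the full fit), 0 for HCT15 TE, 1 for SW620 TE, 12 for COPS7B mRNA (6 in the full fit) and 10 for COPS7B footprints. Over all genes these fits called 1760 of 9987 for HCT15 mRNA (4226 of 11938 in the full fit). They called 0 of 8517 for HCT15 TE (1483 of 8876) and 288 of 7284 for SW620 TE (1518 of 8396). Calls over all genes also fell with close pairs summed, in TE of the 3 lines and in SW620 footprints. These losses of calls were not particular to the 51 genes. COPS7B footprint calls were also 7 with library size only, 7 with no filter and 8 with DESeq2, and COPS7B mRNA calls 3 with genes counted in every compared library. Library size alone moved the median of all genes by over 0.1, for example from -0.25 to 0 in HCT116 footprints and from 0.03 to 0.27 in SW620 mRNA. The cause of these differences was not tested.

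Deviations of INPUT and RPF with the same replicate number correlated at -0.117 to 0.223 within lines, highest in the vector line. These values cannot settle whether equal numbers mark paired samples. A replicate block within each assay gave 34, 38 and 19 calls (mRNA, footprints, TE) for HCT116, 39, 35 and 7 for HCT15, 31, 24 and 6 for SW620, 5, 4 and 0 for COPS7B, and 22, 37 and 25 among the lines. A block over INPUT and RPF, added after seeing the data, gave 14 for SW620 footprints, 3 for COPS7B mRNA, 2 for COPS7B footprints and 11 for mRNA among the lines. Leaving out the libraries labelled COPS7B, and single libraries from the lower bounds on folds, was also added then.

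Without 1 library in turn, calls ranged from 30 to 39, 29 to 32 and 12 to 19 for HCT116 (mRNA, footprints, TE), from 34 to 41, 28 to 32 and 4 to 11 for HCT15, and from 20 to 31, 14 to 18 and 4 to 11 for SW620. They ranged from 3 to 4, 2 to 3 and 0 to 0 for COPS7B, and from 16 to 26, 33 to 37 and 20 to 27 among the lines. CCNE1 mRNA in SW620 turned from -0.46 to 6.44 without 841CON INPUT replicate 1 (adjusted p = 0.00598), since the other 841CON library had no count, and over the 4 such fits ran from -1.73 to 6.44. MAD2L1 footprints in SW620 turned from 5.59 to -2.45 without SW620 RPF replicate 2 (0.962), which held all 3 counts, and ran from -2.45 to 7.98. Of single values, 2 reversed direction with a call in at least 1 fit, 670 lost and 231 gained a call. The other 10544 stayed on their side of the threshold. For these, direction was not compared where neither fit made a call, nor in the F test among the lines. Depth was lowest in the SW620 RPF libraries, with 98043 and 84262 counts.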
